A study of Homo sapiens with 20 samples.

Results

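Subtelomeric regions of histone H3 lysine 27 acetylation (H3K27ac) were examined in HCT-116 cells, a human colorectal cancer line. Peak lists of 16 libraries were merged on chromosomes 1 to 22 and X wherever peaks overlapped by at least 1 bp, which gave 58859 regions. Of these, 646 lay within 500 kb of an end of the hg38 chromosome and are called subtelomeric here. Of the 646 regions, 227 (35.1%) came within 1 kb of a protein-coding start site and 419 lay away from one. The limit was a line through a continuum. The last regions inside it, 499.888 kb from the 13q end near GAS6 and 499.645 kb from the 5p end near SLC9A3, were called in 2 and 1 libraries. The first regions outside it, at 500.705 kb and 501.171 kb near PCSK6 and GAS6, were called in 3 and 1.

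Cells were wild type (WT) or an FBXW7-/- derivative (KO), which lacks the substrate receptor of an E3 ubiquitin ligase. They were transfected for 48 h with a control esiRNA (esiCT), a pool of enzymatically produced small interfering RNAs, or with one against HDAC4 (esiHDAC4), a class IIa histone deacetylase. For the last 24 h they received 50 µM oxaliplatin (OXPT), a platinum drug that damages DNA, or its solvent water (UNT). Each of the 8 combinations had 2 libraries, replicates A and B, and the labels say that 3 independent experiments were pooled, so the spread between libraries may not be that between single experiments.

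Subtelomeres are the stretches between the terminal TTAGGG repeats of a telomere and the single-copy sequence of the chromosome arm. They hold segments that were copied between chromosome ends, gene families such as olfactory receptors and zinc finger genes, and GC-rich domains with many housekeeping genes. H3K27ac is deposited by the acetyltransferases p300 and CBP and marks active promoters and enhancers.

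The regions that the results turn on most were copies of 1 duplicated sequence. Grouping the 646 regions by shared 31-base words joined 39 of them into 9 families, and the largest family had 16 regions on 9 chromosome ends. A stretch of 150 bases that aligned between 6 of these copies is shown, because it lets the copies be compared base by base. It is read from hg38 in the direction of the 17q copy. The stretch was picked for the most 31-base words shared between copies, so its match does not stand for whole regions. Over whole regions, pairs of these 6 copies shared from 8.52% (5p and 13q) to 68.1% (17q and 21q) of the shorter region's words. The capitals mark bases that differ from the 17q copy (chr17:83238516-83238665). The 1q (chr1:248935171-248935320) and 19q (chr19:58597554-58597703) copies were identical to it, the 21q copy (chr21:46689348-46689497) matched at 149 bases, and the 5p (chr5:14140-14289, minus strand) and 13q (chr13:114344758-114344908) copies each matched at 145.
17q copy: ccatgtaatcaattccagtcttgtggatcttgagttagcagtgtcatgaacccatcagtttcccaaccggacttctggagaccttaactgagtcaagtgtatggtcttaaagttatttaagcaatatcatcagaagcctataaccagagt
1q copy: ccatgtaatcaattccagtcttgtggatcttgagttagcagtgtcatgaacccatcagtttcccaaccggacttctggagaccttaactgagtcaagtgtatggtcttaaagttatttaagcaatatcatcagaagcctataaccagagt
19q copy: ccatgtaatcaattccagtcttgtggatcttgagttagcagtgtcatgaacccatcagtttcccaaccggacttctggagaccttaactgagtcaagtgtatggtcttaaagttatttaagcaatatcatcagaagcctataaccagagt
21q copy: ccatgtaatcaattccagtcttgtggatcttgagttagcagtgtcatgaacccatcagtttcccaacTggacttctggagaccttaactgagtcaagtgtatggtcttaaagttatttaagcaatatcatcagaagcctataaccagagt
5p copy: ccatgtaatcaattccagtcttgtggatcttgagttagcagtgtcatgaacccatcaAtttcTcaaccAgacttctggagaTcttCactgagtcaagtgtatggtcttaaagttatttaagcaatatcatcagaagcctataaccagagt
13q copy: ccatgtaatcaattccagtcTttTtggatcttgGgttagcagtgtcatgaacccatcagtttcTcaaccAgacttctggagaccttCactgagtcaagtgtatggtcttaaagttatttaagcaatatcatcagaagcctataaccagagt

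Outside this family, many regions at start sites were GC-rich promoters. The UCKL1 region had the highest median fold at a start site among regions called in at least 9 libraries. The 200 bases around its summit (chr20:63956023-63956222) were 77% G or C. Those of a region 8.1 kb from the TRIM7 start site (chr5:181191981-181192180) were 70%, with 5 matches to the GC box GGGCGG on both strands, of which 2 pairs overlap by 1 base. The summit of a region at TRIB3 (chr20:380044-380243), called in WT libraries only, had 57%. These are shown to set promoter-like sequence beside that of the duplicated family, with capitals marking GGGCGG, on either strand, or TGANTCA, the AP-1 motif.
UCKL1 summit: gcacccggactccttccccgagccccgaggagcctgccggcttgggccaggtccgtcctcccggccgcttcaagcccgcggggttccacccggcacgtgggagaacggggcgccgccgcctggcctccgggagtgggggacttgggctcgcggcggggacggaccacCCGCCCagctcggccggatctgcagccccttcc
TRIM7-near summit: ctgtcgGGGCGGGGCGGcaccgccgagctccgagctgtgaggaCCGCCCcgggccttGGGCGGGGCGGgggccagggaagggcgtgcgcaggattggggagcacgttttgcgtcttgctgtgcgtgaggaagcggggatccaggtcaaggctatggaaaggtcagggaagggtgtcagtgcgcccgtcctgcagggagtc
TRIB3 summit: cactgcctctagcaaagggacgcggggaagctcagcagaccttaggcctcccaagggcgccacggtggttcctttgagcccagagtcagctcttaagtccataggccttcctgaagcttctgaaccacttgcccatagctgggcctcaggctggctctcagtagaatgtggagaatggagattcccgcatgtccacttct

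Read totals are not part of the deposited lists, and list length stood for depth. The lists held 1752 to 27927 peaks on these chromosomes (median 19744). The shortest was KO esiHDAC4 UNT replicate B, in which 11 subtelomeric regions were called. Outside the subtelomeres, KO lists had 74373 calls against 139309 in WT, OXPT lists 99304 against 114378 in UNT, and esiHDAC4 lists 104401 against 109281 in esiCT. Of 8 epithelial markers, 6 had a peak at the start site in at least 9 libraries (range 1 to 16, with VIL1 in 1 and CDH1 in 8). Of 11 markers of blood, fibroblasts, endothelium and the nervous system, 10 had none and COL1A1 had one in 3. In 15 libraries the fold and p of 99.8% to 99.98% of peaks fitted a whole number of reads (within 0.01 of the given −log10 p), against 8.47% in WT esiCT UNT replicate B. Fold and p were thus related differently in that library, for a reason that was not tested, and its part in the genotype comparison is given below. A region missing from a short list was not detected there, which does not show that it lacked the mark.

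The number of subtelomeric regions called per library was 11 at the lowest, 174.5 at the median and 274 at the highest. As a share of all regions called in the library this was 0.702% to 1.35% (median 1.08%). The share was 1.06% to 1.35% in the replicate A libraries and 0.702% to 1.15% in the replicate B libraries, so it moved with the letter, and the pairs compared below share a letter. Of the 646 regions, 329 (50.9%) were called in 1 library and 97 (15.0%) in at least 9. Among the 58213 other regions these shares were 51.9% and 15.6%. At start sites 33.0% of subtelomeric regions reached 9 libraries, against 5.25% away from them.

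Only 3 subtelomeric regions were called in all 16 libraries (0.464%, against 0.806% of the other regions). They lay at RIC8A (chr11:206100-210202), a chaperone and exchange factor for G protein alpha subunits, at IFITM3 (chr11:318778-321422), an interferon-induced membrane protein that restricts virus entry, and at ZBTB45 (chr19:58518107-58522124), a BTB zinc finger protein. The summit fold, the ratio of the pileup at the peak summit to the local background, was 3.34 at the lowest, 5.24 at the median and 8.95 at the highest library for RIC8A. It was 4.16, 5.22 and 9.09 for IFITM3 and 3.27, 5.01 and 6.72 for ZBTB45. The 3 regions thus had similar levels, and their ranges overlapped widely.

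Regions called in at least 9 libraries were ranked by median fold. The highest at start sites belonged to UCKL1 (6.22 in 12 libraries), a uridine-cytidine kinase-like enzyme, PKP3 (6.22 in 15, range 4.16 to 10.2), a plakophilin of desmosomes, and FAM110C (6.15 in 12). RACK1, a scaffold protein of the small ribosomal subunit, had 6.10 in 13 libraries, and TUBB3, a beta-tubulin best known from neurons, 5.94 in 15. Away from start sites the leading regions of this ranking were the 5p and 17q copies of the duplicated family, with medians of 5.70 and 5.59. They were followed by the TRIM7-near region (5.49 in 9 libraries), an intron of the Ras regulator RASA3 (5.39 in 13, range 4.33 to 9.56) and a region 13.1 kb from the start site of B4GALNT4, a glycosyltransferase (4.87 in 12). The 5p and 17q copies were also the regions nearest to an end that were called in at least 8 libraries, at 13.4 and 16.8 kb. The third was the start site of RABL2B, a small GTPase, 34.0 kb from the 22q end. These distances include the run of unknown bases at each hg38 end.

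Regions were unevenly spread over the ends. Of 46 ends, 41 had sequence in the last 500 kb of hg38, and the short arms of chromosomes 13, 14, 15, 21 and 22 had none. Among the ends with sequence the median was 14 regions, and 3p, 14q and Xp had 0. The 17q end had 45, 7p had 43, and 19q and 22q had 41 each, together 170 regions (26.3%). These ends differed in kind. The 19q end had 24 protein-coding genes and 28 regions at start sites, whereas 7p had 2 genes and 1 region at a start site. Of the 43 regions on 7p, 31 were called in 1 library, and 7 of these came from KO esiHDAC4 UNT replicate A, 7 from KO esiHDAC4 OXPT replicate A and 6 from WT esiHDAC4 OXPT replicate A. The 16p end went the other way, with 21 genes but 11 regions and 25 calls.

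**Figure D1:**
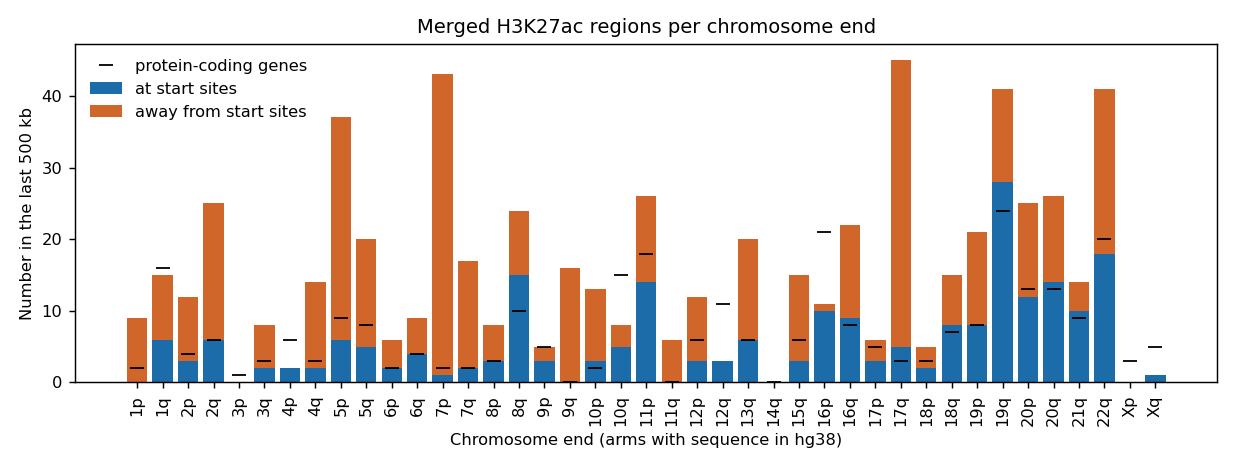
Merged H3K27ac regions in the last 500 kb of each chromosome arm with sequence in hg38 (bars, at start sites in blue and away from them in orange, as numbers), with the number of protein-coding genes as black marks. The 17q and 7p bars, at 45 and 43, are mostly orange, the 19q bar is mostly blue, and 16p has 21 genes but 11 regions.

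In the outermost 50 kb, region density did not follow gene density. Subtelomeric regions numbered 34.5 per Mb of sequenced hg38, against 18.7 per Mb beyond 5 Mb. Within 50 kb of the end there were 48.7 regions per Mb at 7.80 genes per Mb, between 50 and 100 kb 29.8 regions at 14.9 genes, between 100 and 250 kb 28.0 regions at 13.5 genes, and between 250 and 500 kb 37.6 regions at 17.7 genes. Farther in, the density was 53.5 per Mb between 1 and 2 Mb. Of the 50 regions in the outermost 50 kb, 24.0% lay at start sites, the lowest share of the 4 bins. Of these 50, 13 belonged to the duplicated family, whose reads cannot all be placed at 1 copy. Regions of smaller families also lay there, 1 family at 17.8 to 17.9 kb and the second largest from 28 kb. They are not among the 13.

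**Figure D2:**
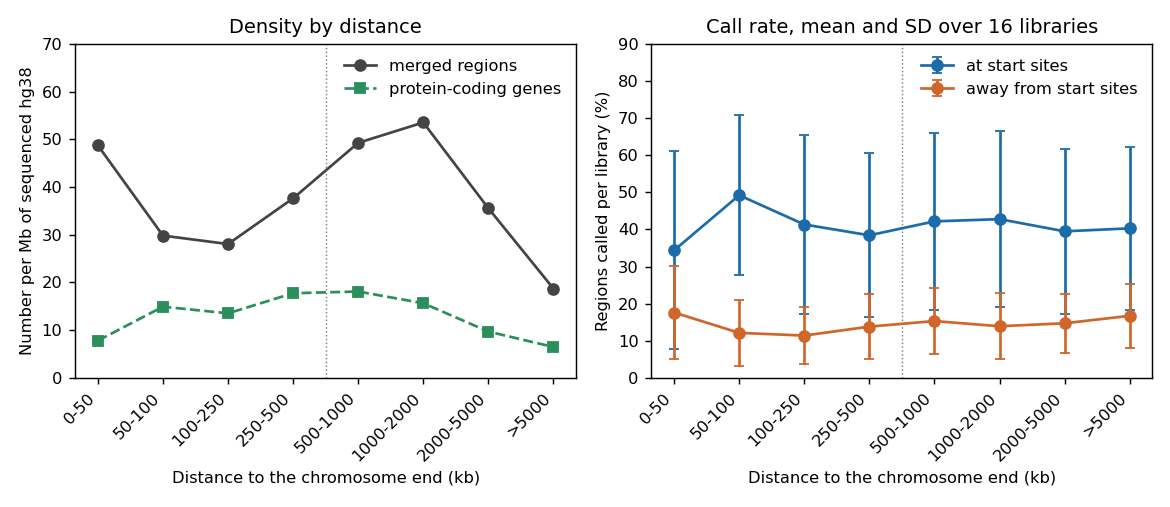
Left, merged regions and protein-coding genes per Mb of sequenced hg38 by distance to the chromosome end in kb. Right, the percentage of regions called per library, as mean and SD over 16 libraries, at start sites (blue) and away from them (orange), with a dotted line at the 500 kb limit. Within 500 kb the region density is highest in the outermost 50 kb, at 48.7 per Mb, where gene density is 7.80 per Mb, and it reaches 53.5 per Mb between 1 and 2 Mb, and the error bars of the call rates overlap between all bins.

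The rate at which regions were called was compared between subtelomeric and other regions in the same library, with two-sided exact sign-flip permutation tests over 16 libraries, for which the smallest possible p was 3.05e-05. The call rate averaged 22.6% for subtelomeric and 22.9% for other regions, a difference of -0.38 percentage points (SD 3.46, higher in 8 and lower in 8 libraries, exact p = 0.664). The letters went opposite ways, with 2.15 points over the 8 replicate A libraries (exact p = 0.0391) and -2.91 over the 8 replicate B libraries (exact p = 0.0234), and B lists were shorter (median 9389 peaks against 20762). At start sites it was 39.6% and 40.4% (exact p = 0.277), with 1.01 points in A (exact p = 0.3125) and -2.57 in B (exact p = 0.0078, the smallest that 8 libraries allow). Away from start sites subtelomeric regions were called less often, at 13.3% against 16.4%, a difference of -3.09 points (SD 4.65, lower in 11 of 16 libraries, exact p = 0.0165). In the 8 replicate A libraries this difference was -1.22 points (exact p = 0.422) and in the 8 replicate B libraries -4.96 (exact p = 0.0234). The log2 summit fold of the called regions away from start sites was also lower, by a median difference that averaged -0.05 (SD 0.07, lower in 12 of 16 libraries, exact p = 0.0105). Within the letters this fold difference was -0.04 and -0.06, and neither passed alone in A or B (exact p = 0.0547 and 0.148).

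Regions within 100 kb of the end were then set against those at 250 to 500 kb. Regions at start sites were called at 42.9% against 38.4%, a difference of 4.44 points (SD 6.61, higher in 12 of 16 libraries, exact p = 0.0185). It was 4.11 points in the A (exact p = 0.219) and 4.77 in the B libraries (exact p = 0.0234). Away from start sites the rates were 15.1% and 13.8% (difference 1.3, SD 7.80, exact p = 0.523). The log2 summit fold over both kinds was 0.06 higher in the outer bin (SD 0.11, higher in 13 of 16 libraries, exact p = 0.0314), and within each letter it did not pass the threshold (exact p = 0.258 in A and 0.0703 in B).

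Subtelomeric regions were richer in G and C at the median, with a wide overlap. In 500-base windows on the summits the median GC content was 58.2% (quartiles 49.6% and 65%), against 49.6% in other regions (quartiles 41.8% and 58.6%). At start sites it was 63.6% against 59.8%, and away from them 55.6% against 47.0%. The 70 regions away from start sites in the outermost 100 kb stood apart from this with 44.7%. The GC box GGGCGG occurred in 39.8% of subtelomeric windows, 27% of other windows and 27.1% of all windows, and TGANTCA in 10.7%, 14.6% and 14.6%. Both strands were searched and the motifs do not overlap. The telomere word TTAGGG was in 16.7% of both, while 2 such words in tandem were found in 1 subtelomeric window (0.155%) and 11 others (0.0189%). These are descriptions of letters in a window and not of binding.

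Uniqueness of sequence also differed. The 200 bases on the summit consisted only of 31-base words that occur once in hg38 in 63.9% of subtelomeric and 71.5% of other regions. Fewer than 50% of the words were unique in 19.7% and 11.5%. In the outermost 100 kb away from start sites this last share was 58.6%. Reads from such sequence can be placed at any of several ends.

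A list of genes by function was read at the start sites within 500 kb of an end. Of 287 protein-coding genes there, 106 (36.9%) had a peak within 1 kb of a start site in no library and 89 (31%) in at least 9, and the median was 3 libraries. Among the 19322 other genes these were 37.7%, 31.9% and a median of 4. The lists below were chosen with earlier results of these data known and are described by their counts only.

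Genes of chromatin and transcription and those of protein synthesis had the highest medians of the lists, at 11 and 12 libraries. All 15 genes of chromatin and transcription had a peak in at least 1 library and 9 (60%) in at least 9. They included the transcription factor SOX12 (15 libraries, median fold 4.90), the chromosome alignment protein CHAMP1 (14), the H3K4 demethylase KDM5A (13), the mitochondrial deacetylase SIRT3 (13) and the corepressor TRIM28 (12). TBP, the TATA-binding protein, had a peak in 3. Of 9 genes of protein synthesis and turnover, 6 (66.7%) were called in at least 9 libraries, among them those of the ribosomal proteins RPL8 (13) and RPL35A (12), the proteasome subunit PSMD13 (13) and the NEDD8-conjugating enzyme UBE2M (12). PSMD13 and SIRT3 share 1 region, since their start sites are neighbours. POLR3K, a subunit of RNA polymerase III, and MRPL28, a mitochondrial ribosomal protein, had none.

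Immune genes were mixed. IFITM3, whose region was called in all 16 libraries, had a peak within 1 kb of its start site in 14, IFITM2 in 11, IFITM1 in 6 and SIGIRR, an inhibitor of interleukin-1 signalling, in 9. IRF4, a transcription factor of lymphocytes, had a peak in 1, and IFITM5, NLRP6, PDCD1, DOCK8 and IL9R had none. The start sites of IFITM1 and IFITM2 both lie within 1 kb of 1 merged region (chr11:306887-309633), called in 11 libraries, so their counts are not independent. Among 36 zinc finger genes, 12 had none, 9 were called in at least 9 libraries and the median was 4.5. Zinc finger genes elsewhere had a similar median of 4 (501 genes). ZNF692 and ZNF596 led with 15 libraries each and ZNF7 had 13, whereas ZNF10, ZNF140, ZNF268, ZNF605 and ZNF891 near the 12q end and ZNF141, ZNF595, ZNF718 and ZNF732 near the 4p end had none.

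Tissue-restricted families were mostly without a call. All 5 alpha globin genes near the 16p end (HBZ, HBM, HBA1, HBA2 and HBQ1) had none. Of 20 olfactory receptor genes 19 had none, and OR4F4 had a peak in 1 library. Of 371 olfactory receptor genes elsewhere, 99.2% had none. Of 10 nervous system genes 5 had none, and TUBB3 (15) and OPRL1, the nociceptin receptor (11), were the exceptions above 9. Also on 16p, the WNT pathway scaffold AXIN1 and the nucleoside diphosphate kinase NME4 had none. In the remaining lists, 4 of 8 signalling, 3 of 6 cell cycle and 6 of 12 metabolic genes were called in at least 9 libraries, with PKP3 (15), MCM3AP, the gene of a replication and RNA export protein (10), and ACP1, CHKB and SCO2 (11 each) in front.

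**Figure D3:**
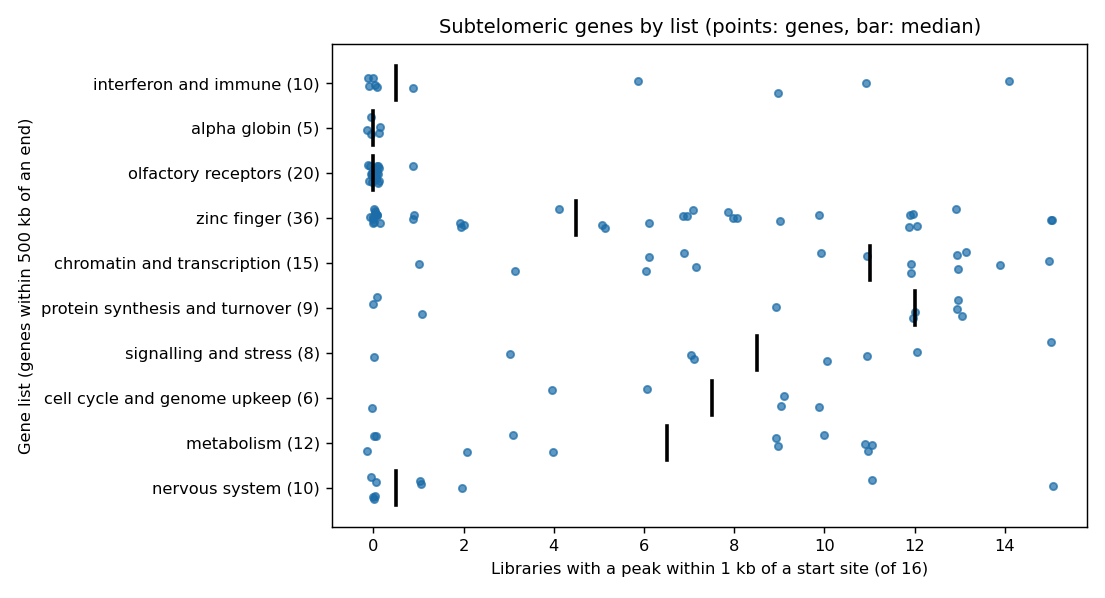
Number of libraries, of 16, with a peak within 1 kb of a start site for each subtelomeric gene (points, spread slightly to be seen), by gene list with the number of genes in brackets and the list's median as a black bar. The chromatin and protein synthesis lists have medians of 11 and 12, and the alpha globin and olfactory receptor lists sit at 0.

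The study asked how the acetylation landscape responds to OXPT. Over 8 pairs of libraries matched on genotype, esiRNA and letter, the subtelomeric share of called regions averaged 1.07% in OXPT and 1.04% in UNT, a mean log2 difference of 0.04 (SD 0.15, higher in 5 of 8 pairs, exact p = 0.531, adjusted p = 0.531 over 6 tests; two-sided exact sign-flip permutation test, smallest possible p 0.0078). The relative fold, which is the median log2 summit fold of subtelomeric minus that of other regions in a library, differed by 0.02 (SD 0.07, exact p = 0.453, adjusted p = 0.531). Neither passed the threshold. Away from start sites the relative fold was 0.07 higher with OXPT (SD 0.07, higher in 6 of 8 pairs, exact permutation p = 0.03125, adjusted p = 0.164). With 1 start site per gene record this difference was 0.02 (exact permutation p = 0.375).

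The duplicated family stood apart from this average. Its 16 regions were called 66 times in the 8 OXPT libraries and 7 times in the 8 UNT libraries, and 6 of the 16 were called in only 1 or 2 libraries, all OXPT. A region exists only where a peak was called, so the 4 called once had to be one-sided, and a copy without a call is not among the 16. Per library, 3 to 12 of them (median 9.5) were called with OXPT and 0 to 3 (median 0.5) without. The matched counts for OXPT and UNT were 12 and 3 in WT esiCT replicate A, 7 and 1 in WT esiCT B, 9 and 1 in WT esiHDAC4 A, and 10 and 2 in WT esiHDAC4 B. They were 10 and 0 in KO esiCT A, 3 and 0 in KO esiCT B, 10 and 0 in KO esiHDAC4 A, and 5 and 0 in KO esiHDAC4 B. The OXPT library was higher in 8 of 8 pairs, and the 2 groups touched only at 3 regions. All 7 UNT calls were in WT libraries. The other subtelomeric regions had 1046 calls in OXPT and 1213 in UNT, close to the split over all regions elsewhere (99304 and 114378). The pattern was noticed in these data, and no test was made of it. The grouping compared sequences and did not use which libraries called a region. The regions and their extents came from the called peaks, so the families were not independent of the calls. Without the regions of the 9 families, the share with OXPT differed from UNT by -0.08 on the log2 scale (exact permutation p = 0.164), in the other direction from the value with them.

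**Figure D4:**
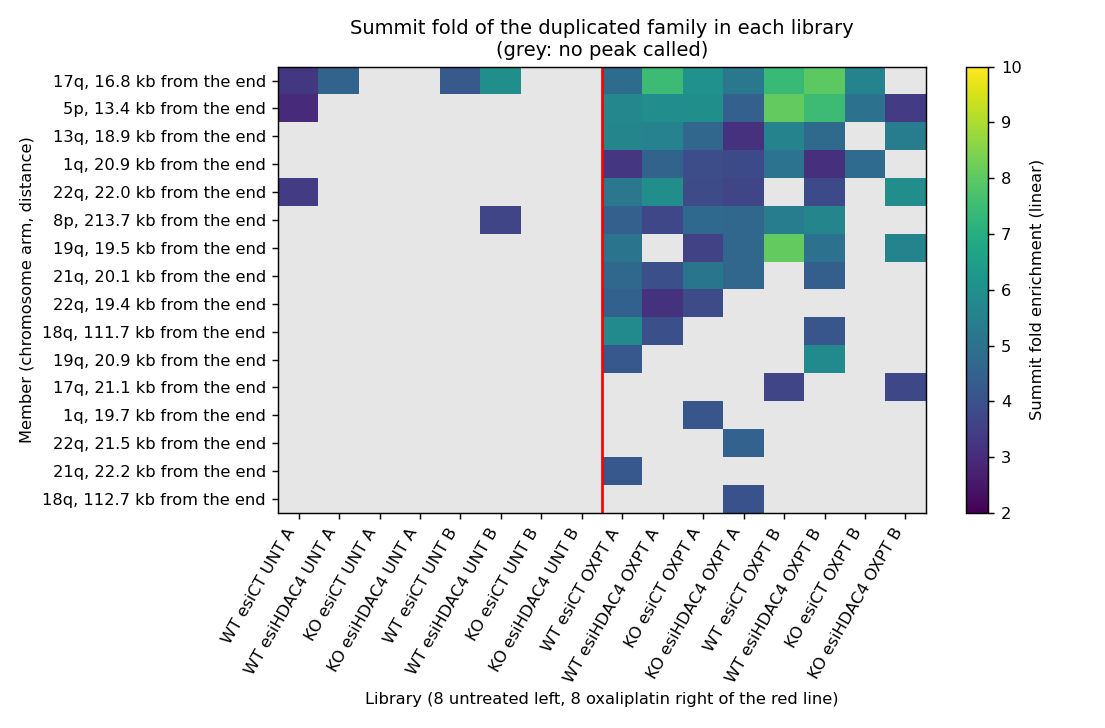
Summit fold (linear colour scale, grey where no peak was called) of the 16 regions of the duplicated family, named by chromosome arm and distance to the end, in the 8 UNT libraries (left of the red line) and the 8 OXPT libraries (right). The right side holds 66 called cells and the left side 7.

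The 5p copy (chr5:13374-15763) was called in all 8 OXPT libraries, with folds of 3.38 to 8.08 (median 5.81), and in 1 UNT library at 2.97. The 13q copy (chr13:114343053-114345393) was called in 7 OXPT libraries at 3.14 to 5.66 (median 5.36) and in no UNT library. The 1q copy (chr1:248933315-248935525) was called in 7 OXPT libraries at 3.07 to 5.05 and in no UNT library. The groups thus overlapped through the 1 UNT call on 5p and through 1 OXPT library each without a call, KO esiCT OXPT replicate B for 13q and KO esiHDAC4 OXPT replicate B for 1q. The 19q copy (chr19:58597019-58598072) was called in 6 OXPT libraries at 3.58 to 8.08 and the 21q copy (chr21:46688155-46689889) in 5 at 3.96 to 5.10, both in no UNT library. The 17q copy (chr17:83236376-83240611) was less one-sided, with 7 OXPT calls at 4.82 to 7.98 and 4 UNT calls, all WT, at 3.30 to 5.99. In KO cells that copy was called in 3 libraries, all OXPT.

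All 16 regions lay away from start sites, and 13 of them within 25 kb of 7 ends. By genotype there were 28 calls in KO and 45 in WT, beside 74373 and 139309 over all regions outside the subtelomeres, and by esiRNA 37 in esiHDAC4 and 36 in esiCT, beside 104401 and 109281. The GC content of their 500-base windows was 31.2% to 45.8% (median 40%), TTAGGG was in 5 of the 16 windows, TGANTCA in 4 and GGGCGG in 3. Between 0.940% and 65.8% of the 31-base words of a copy were unique in hg38 (median 12.6%), so part of the reads cannot be assigned to 1 copy, and how many copies carried the mark was not tested. The sequence occurred at 20 places in the reference, of which 18 were within 500 kb of an end and 9 of these held a region. The copies on 1p, 2q, 4p, 4q, 5q, 6q and 10q had no region. Both places inside chromosomes, on chromosomes 2 and 3, held regions, 3 in all, which had 3 OXPT and 0 UNT calls. Each of these regions was called once and so had to be one-sided.

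The second largest family had 7 regions on 5 ends and did not share this pattern, with 8 OXPT and 12 UNT calls. It includes the start site of WASHC1 on 9p, which encodes a WASH complex subunit of endosomes and was called in 3 OXPT and 4 UNT libraries. The 7 smaller families had few calls. Their OXPT and UNT calls were 3 and 4, 3 and 0, 1 and 1, and in each of the rest 2 and 0. Most of them thus had OXPT calls only, from regions called once each, which had to be one-sided.

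Presence was also tested region by region. The exact conditional test (two-sided, within letters) covered the 20090 regions called in 3 to 13 libraries, 235 of them subtelomeric. No subtelomeric region passed an adjusted p of 0.05 for OXPT, genotype or esiRNA, and the smallest adjusted p values over all regions were 1, 0.208 and 1. At an unadjusted exact p under 0.05, 9 subtelomeric regions (3.83%) were called more often in OXPT, where the background over all regions was 1.43%. With 1 letter left out, 1 to 5 subtelomeric regions passed. Of these 9, 7 were copies of the duplicated family, on 1q, 5p, 8p, 13q, 19q, 21q and 22q (exact p = 0.00204 for each of those on 1q, 5p and 13q). The other two were a region near ARHGAP39 on 8q (6 OXPT and 0 UNT libraries) and an intron of the tubulin cofactor gene TBCD on 17q (6 and 1). In the other direction 1 region (0.426%) passed, beside a background of 0.692%. It was the start site of ADNP2 (chr18:80109073-80110420), a zinc finger homeobox gene, called in 0 OXPT and 6 UNT libraries at folds of 3.61 to 5.29 (exact p = 0.00612, adjusted p = 1). The UNT libraries that lacked it were both KO replicate B libraries.

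The 2 OXPT comparisons of the study in esiCT cells were then read as switches, regions called in both libraries of one group and in neither of the other. In WT cells 6 subtelomeric regions (0.929%) were gained, beside 0.506% of all regions, and 23 (3.56%) were lost, beside 5.57%. The gained set included the 1q, 8p, 13q and 19q copies of the family. The lost set included the start sites of ADNP2, of the phosphatase DUSP22, of RASA3, of the DNA glycosylase MPG and of the centrosomal gene PCNT. In KO cells 12 (1.86%) were gained, beside 1.62%, and 1 (0.155%) was lost, beside 0.112%. The KO gains included the 1q, 5p and 17q copies and the start sites of PDCD2, ZNF84, FRG1 and TXNL4A. PDCD2, ZNF84 and a region 30.6 kb from the 7p end were lost in WT and gained in KO cells. The share of all regions that did so was not counted. List lengths also ran opposite ways. In WT, OXPT lists had fewer regions than UNT lists (19630 and 7840 against 24747 and 20523). In KO they had more (17609 and 5981 against 9873 and 4229). These are descriptions, and no test was run on them. An exact test of 2 against 2 libraries cannot go below 0.333.

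Loss of FBXW7 was compared over 8 pairs matched on esiRNA, drug and letter. The subtelomeric share was 1.08% in KO and 1.02% in WT (mean log2 difference 0.06, SD 0.22, higher in 6 of 8 pairs, exact p = 0.516, adjusted p = 0.531). The relative fold was lower in KO in 8 of 8 pairs, by a mean of -0.07 on the log2 scale (SD 0.04), that is 0.954-fold. The exact sign-flip permutation p of 0.0078 was the smallest that 8 pairs allow, and the adjusted p was 0.0469. The group means were -0.03 in KO and 0.04 in WT. Neither start sites (-0.02, exact p = 0.344) nor regions away from them (-0.05, exact p = 0.211) passed alone, and the call depended on the setting. With limits of 250 kb and 1000 kb the difference was -0.06 and -0.04 (adjusted p = 0.270 and 0.0938, exact permutation test), with −log10 q of at least 5 it was -0.03 (adjusted p = 0.469), and among the regions called in all 16 libraries it was 0.01, in the other direction. KO lists were shorter in total. With all lists shortened to the 1752 strongest peaks the difference was -0.08 in the same test (exact permutation p = 0.0078, adjusted p = 0.0469). WT esiCT UNT replicate B had the highest relative fold of the 16 libraries (0.08), and without its pair the difference was -0.07 (exact permutation p = 0.0156, the smallest for 7 pairs). It was -0.04 over the A pairs and -0.10 over the B pairs.

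By presence, 0 subtelomeric regions were called more often in KO at an unadjusted exact p under 0.05, beside a background of 0.0747%, and 19 (8.09%) more often in WT, beside 13.6%. With 1 letter left out the latter were 2 to 10. The test covered regions called in 3 to 13 libraries, and subtelomeric regions had medians of 6 libraries at start sites and 1 away. Of the 19, 16 lay at start sites, and the share at start sites among all regions that passed was not counted. The most one-sided was a region at TRIB3 (chr20:379441-380599), a stress-induced pseudokinase, called in 8 WT and 0 KO libraries at folds of 2.59, 4.24 and 6.43 for the lowest, median and highest library (exact p = 0.000408, adjusted p = 0.208). With both regions at TRIB3 start sites counted, the gene had a peak in 8 WT and 4 KO libraries, so the groups overlapped for the gene. A region at the edge of CHAMP1 (chr13:114314552-114315200) was called in 6 WT and 0 KO libraries at folds of 3.44 to 4.57 (exact p = 0.00612), while the start site as a whole was called in 8 WT and 6 KO libraries. RABL2B (chr22:50783824-50784488) was called in 7 WT and 1 KO libraries at 4.05 to 5.63 (exact p = 0.0102). A region at 15q, 27.9 kb from the TARS3 start site, led the KO direction with 3 KO and 1 WT libraries.

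Silencing of HDAC4 was compared over 8 pairs matched on genotype, drug and letter. The subtelomeric share was 1.11% in esiHDAC4 and 0.991% in esiCT (mean log2 difference 0.19, SD 0.26, higher in 6 of 8 pairs, exact p = 0.0547, adjusted p = 0.164), which did not pass the threshold. The difference was 0.04 over the A pairs and 0.33 over the B pairs, and 0.11 without the pair of KO OXPT replicate B libraries. Among calls away from start sites the subtelomeric share was 0.906% and 0.667% (log2 difference 0.49, SD 0.66, higher in 7 of 8 pairs, exact permutation p = 0.0547). At start sites the shares were 1.35% and 1.35% (exact p = 0.992), and the difference between start sites and other regions was not tested. Regions called in a single library made up a median of 18.8% of the subtelomeric calls in esiHDAC4 and 10.6% in esiCT. The same share among calls elsewhere was not counted by esiRNA. Over all 16 libraries, 50.9% of subtelomeric and 51.9% of other regions were called in only 1. Among regions called in at least 2 libraries the share difference was 0.10 (exact permutation p = 0.227). The relative fold differed by -0.03 (SD 0.07, exact p = 0.328, adjusted p = 0.531).

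By presence, 1 subtelomeric region (0.426%) was called more often in esiHDAC4 at an unadjusted exact p under 0.05, beside a background of 0.0348%, and 0 more often in esiCT, beside 0.184%. With either letter left out no subtelomeric region passed. The 1 region lay 93.8 kb from the FRG1 start site on 4q (chr4:189846085-189847090). It was called in 6 esiHDAC4 and 0 esiCT libraries, at folds of 2.2 to 4.27 (exact p = 0.0102, adjusted p = 1). DIP2A at 21q, called in 7 esiHDAC4 and 3 esiCT libraries, was next in that direction. FAM20C, a secretory pathway kinase gene near the 7p end, was called in 1 esiHDAC4 and 5 esiCT libraries and led the other.

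As switches in OXPT-treated KO cells, HDAC4 silencing gained 4 subtelomeric regions (0.619%, beside 0.292% of all regions) and lost 6 (0.929%, beside 1.1%). In OXPT-treated WT cells it gained 7 (1.08%, beside 1.07%) and lost 2 (0.31%, beside 0.55%). The 4q region near FRG1 was gained in both. The KO losses included the start sites of FRG1, RPL8, ZNF84, C20orf96 and ADM2, and the WT gains those of IFITM1 and IFITM2, ZNF596, EXOC3 and ZSCAN22.

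**Figure D5:**
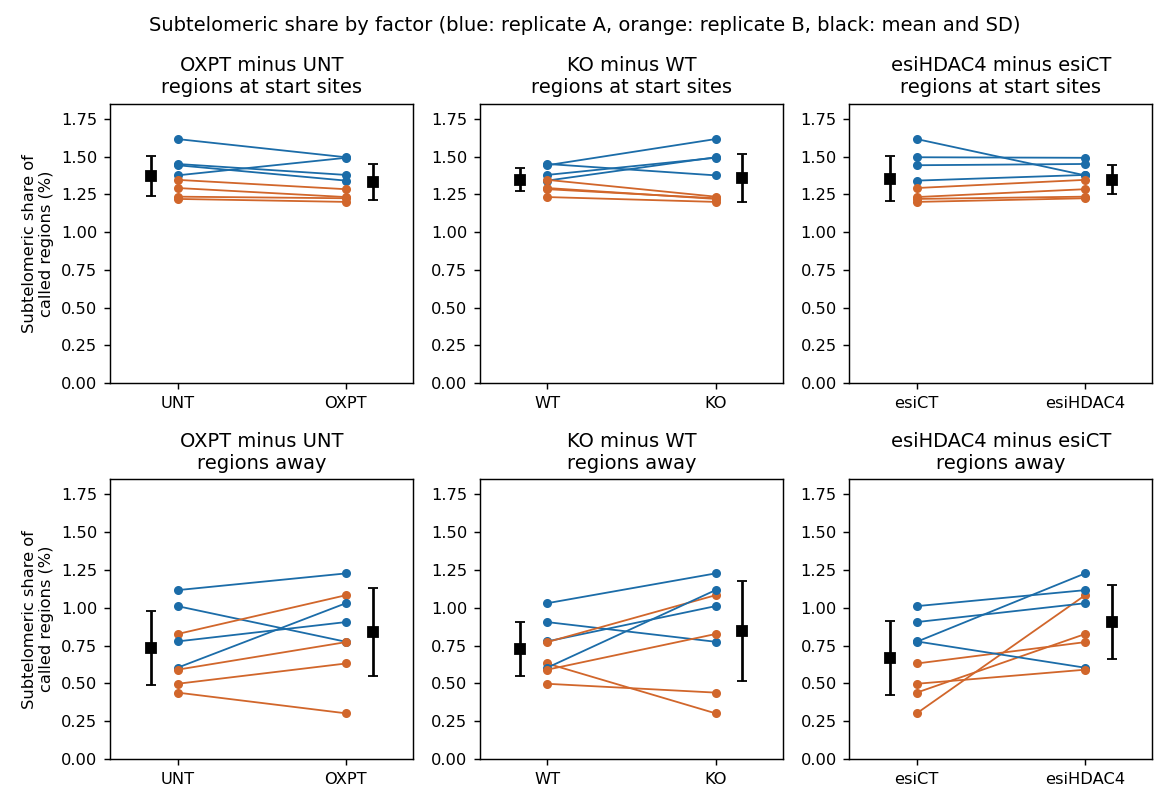
Subtelomeric share of all called regions, in percent, at start sites (top) and away from them (bottom), for OXPT against UNT, KO against WT and esiHDAC4 against esiCT. Each line joins 1 of 8 matched pairs of libraries (blue replicate A, orange replicate B), and black squares with bars are mean and SD. At start sites the means lie between 1.33% and 1.37%, and away from them the esiHDAC4 mean of 0.906% lies above the esiCT mean of 0.667% with overlapping bars.

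Whether 1 factor changed the response to another was tested by exchanging pair differences, 4 against 4 (two-sided exact permutation test, smallest possible p 0.0286). The response of the share to OXPT was 0.15 (SD 0.07, positive in 4 of 4 pairs) with esiHDAC4 and -0.08 (SD 0.10, positive in 1 of 4 pairs) with esiCT. The difference of 0.24 reached an exact p of 0.0286 and an adjusted p of 0.171 over 6 interactions. Differences were exchanged across letters, and within A and B this value was 0.26 and 0.22. The remaining 5 interactions had exact p values of 0.257 to 0.886.

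Summit fold was also fitted across the 472 regions called in all 16 libraries with limma, with letter, genotype, drug and esiRNA as terms. The 3 subtelomeric regions among them, RIC8A, IFITM3 and ZBTB45, gave 0 calls in each comparison, at an adjusted p under 0.05 and also at an unadjusted p under 0.05. Over all 472 regions the calls were 0.212% for OXPT, 2.97% for genotype and 0% for esiRNA, and 38, 100 and 18 regions had an unadjusted limma p under 0.05. Over the 4511 regions called in at least 12 libraries, 42 of them subtelomeric, limma again called 0 subtelomeric regions, beside 0.355% of all these regions for OXPT, 1.51% for genotype and 0% for esiRNA. At an unadjusted limma p under 0.05 there were 1, 6 and 2 of the 42 subtelomeric regions, beside 345, 784 and 188 of all 4511. The nearest to the threshold was the region at ODF3B and TYMP, the thymidine phosphorylase gene, which was 0.55 higher in KO on the log2 scale (SE 0.16, adjusted p = 0.0694).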

How the data were processed

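H3K27ac ChIP-seq of HCT-116 cells was analysed in 16 libraries (2 for each of 8 combinations of genotype, esiRNA and drug), and 4 input samples were not analysed here. Per the methods and the submitters' processing notes, the authors used Trimmomatic 0.39 on read pairs, Bowtie2 2.4.4 for alignment to hg38, SAMtools 1.18 to drop duplicates, and MACS2 2.2.7.1 for peaks of each library. The sources used here do not give how reads with several matches were treated. In the deposited peak lists, column 7 is the fold enrichment, a ratio at the summit, columns 8 and 9 are −log10 p and −log10 q, and column 5 is an integer score. In WT esiCT UNT replicate B fold and p were related in another way than in the other 15 lists, for a reason not given in the sources used here. No count per region was used, so no count model was fitted, and depth is unknown apart from list length. Deposited super-enhancer lists hold positions only.

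Peaks on chromosomes 1 to 22 and X were merged (1 bp overlap), and the highest peak gave a region's fold in a library. Distances were measured to the hg38 sequence ends, unknown bases included. Start sites were those of basic protein-coding transcripts, within 1 kb. Matched pairs share the replicate letter, which the study's own design used as a term. The letter was kept in the paired tests, the presence test and limma. Tests of subtelomeric against other regions used all 16 libraries, each its own control, and interactions exchanged pair differences across letters. Nothing in the labels says that a letter marks 1 culture, and p-values measure the spread between these libraries. Two-sided exact sign-flip, exchange and conditional permutation tests used SciPy 1.17.1, and limma 3.58.1 in R 4.3.3 fitted log2 folds centred on each library's median, with Benjamini-Hochberg adjustment at 0.05. Families joined regions of different ends that shared at least 10% of the shorter region's 31-base words (words with over 50 copies in hg38 left out). Named regions were those with the highest median fold in most libraries, the smallest presence p per direction, the nearest to an end, the ends with most regions or none, and the genes of fixed lists; the duplicated family, switched regions and 16p were singled out after their values were seen. Scripts were tested on simulated data. The values of 1 listed gene are not reported here, though it stays in its list's counts. The members and lists were chosen with earlier results of these data known. Alternatives tried were other distance limits, a −log10 q minimum, lists of equal length, a merging gap, other region sets, no block, other normalization and leaving out replicates.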

Additional observations from a re-analysis of the deposited data

Results flagged for a closer look

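The relative summit fold of subtelomeric regions in the 8 esiHDAC4 libraries had 1 library far below the rest. KO esiHDAC4 UNT replicate B was at -0.14 on the log2 scale, where the group's median was -0.00, and it is the library with the shortest list and 11 subtelomeric calls. Away from start sites, KO esiHDAC4 OXPT replicate B was at -0.17, where the median of the 8 OXPT libraries was 0.00. In both, the gap to the next library was more than 50% of the group's range (0.538 and 0.572 of it). Dixon's limit, used for the 24 groups checked, is set so that about 1 in 20 groups passes it by chance, and neither value was set aside.

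The response of the subtelomeric share to OXPT differed between esiHDAC4 and esiCT by 0.24 on the log2 scale (exact permutation p = 0.0286, adjusted p = 0.171), positive in 4 of 4 pairs with esiHDAC4 and in 1 of 4 with esiCT.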

How the results depend on the processing

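Only the lower relative fold in KO passed an adjusted threshold among the factor comparisons, so most changes of direction below concern differences near 0, and the cause of each was not tested. For KO minus WT the relative fold was -0.057 with a limit of 250 kb, -0.035 with 1000 kb, -0.034 with −log10 q of at least 5, -0.066 with merging within 500 bp, -0.059 without duplicated families, -0.046 among regions called in at least 2 libraries, 0.0085 among regions called in all 16, -0.023 at and -0.047 away from start sites, and -0.019 and -0.096 at and away from them with 1 start site per gene record, and it passed the threshold in none of these. Leaving out a replicate gave -0.096 to -0.040, at a smallest possible p of 0.0156 for 7 pairs and 0.125 for 4, so none could pass after adjustment. Without the replicate block it was -0.068 (adjusted p = 0.0177, exact permutation), and taking away the block or pairing changed no other call. The alternatives without duplicated families, with 1 start site per gene record and with regions in at least 2 libraries were chosen after seeing the data.

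The OXPT share difference turned to -0.11 with −log10 q of at least 5, -0.085 with lists shortened to the shortest, -0.083 without duplicated families and -0.043 at start sites, and the OXPT relative fold to -0.010 with 1000 kb and -0.025 with shortened lists. The KO share difference turned to -0.29 with −log10 q of at least 5, -0.19 with shortened lists, -0.0080 among regions in at least 2 libraries and -0.046 at 1 start site per gene record, and it ranged from -0.071 to 0.18 with a replicate left out. The esiHDAC4 share difference was -0.0028 at start sites and -0.068 at 1 start site per gene record, and its relative fold 0.14 among regions in all 16 libraries and 0.0020 at 1 start site per gene record.

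Among interactions, that of esiHDAC4 with genotype on relative fold turned to 0.022 with 250 kb, 0.030 with shortened lists, 0.012 with merging within 500 bp, 0.0084 without duplicated families and 0.014 in at least 2 libraries (-0.035 to 0.019 by replicate). That of OXPT with genotype on the share turned to 0.014 with 1000 kb and 0.097 in at least 2 libraries (-0.14 to 0.029 by replicate), and that of OXPT with esiRNA on relative fold was -0.060 to 0.15 by replicate. At −log10 q of at least 5 the interactions gave no value, since 1 library had no subtelomeric region left.

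The call rate of subtelomeric minus other regions turned to 1.02 points with 1000 kb and was -4.07 with shortened lists (exact p = 0.000275), and -2.91 to 2.15 by replicate. At start sites it was 1.53 with 250 kb, 0.833 with 1000 kb and 0.695 with shortened lists (-2.57 to 1.01 by replicate). The summit fold difference was 0.028 with 1000 kb (exact p = 0.0251), -0.022 with −log10 q of at least 5, -0.0020 with merging within 500 bp, -0.00027 without duplicated families and -0.0032 in at least 2 libraries. At start sites it was -0.0035 with −log10 q of at least 5 (-0.0049 to 0.018 by replicate). The nearest minus farthest call rate turned to 2.8 with 250 kb and 0.809 with shortened lists (-3.26 to 2.38 by replicate), and away from start sites to -0.203 with 1000 kb, -2.24 without duplicated families and -0.0537 in at least 2 libraries (-1.31 to 3.9 by replicate). The matching fold was -0.0025 at start sites with 1000 kb, -0.0055 there with −log10 q of at least 5, and away from them -0.029 with 1000 kb and -0.032 without duplicated families. Read totals are unknown, so a region missing from a short list may have been below detection.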

Other observations

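The deposited lists held 66 to 1265 super-enhancers per library (median 444), of which 0 to 4 (median 1) lay within 500 kb of an end, a median of 0.168%, while the subtelomeric share of all called regions had a median of 1.08%. Of the called subtelomeric regions, 0 to 10 (median 3.5), that is 0% to 5.8% (median 2.31%), lay inside a super-enhancer, against 8.45% to 22.7% (median 12.1%) of the other called regions, and no test was made. By replicate, 0 to 4 super-enhancers near ends were found in the A and 0 to 2 in the B libraries.

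Calls were also compared end by end, as the number of calls relative to all calls elsewhere in the library, for the 20 ends with at least 40 calls. With OXPT this was lower in at least 7 of 8 pairs on 18q (mean log2 difference -0.30, SD 0.32) and 19q (-0.34, SD 0.57) and higher on 22q (0.20, SD 0.33). In KO it was higher in at least 7 of 8 pairs on 4 ends. These were 1q (0.91, SD 0.71), 5p (0.36, SD 0.38), 11p (0.70, SD 0.65) and 15q (1.49, SD 1.31). With esiHDAC4 it was higher on 5 ends. These were 4q (0.73, SD 0.69), 5p (0.36, SD 0.56), 7p (1.07, SD 1.64), 18q (0.32, SD 0.37) and 19p (0.46, SD 0.80). On 11q, which has no protein-coding gene in its last 500 kb and too few calls to be among the 20, 6 regions had 10 UNT and 0 OXPT calls, beside 114378 and 99304 outside the subtelomeres. It was picked after its values were seen, and no test was made of any end. Of the 7 families with 2 or 3 regions, one with 3 regions on 3 ends had 3 calls, all in KO esiHDAC4 OXPT libraries. Each of its regions was called once and so had to be one-sided. The calls of the others numbered 2 to 7. A family with 2 calls also had both in KO esiHDAC4 OXPT libraries, and another had both in WT esiCT OXPT libraries.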
